A study of Mus musculus with 12 samples.

Results

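Iron and heme recycling was followed through 10 genes in GFP(+) cells sorted from mouse liver before and after the bile duct was tied off (bile duct ligation, BDL), an injury in which bile backs up into the liver. The genes were chosen by name, with earlier results of these data known. They stand for steps by which a cell takes up iron, moves and breaks down heme, stores iron and sends it out again. They were *Slc48a1* and *Blvrb* (heme), *Tfrc* and *Trf* (iron uptake), *Slc11a1* (iron across the lysosomal membrane), *Fth1* and *Ftl1* (storage), and *Slc40a1*, *Cp* and *Hamp* (export and its control). All 10 were among the 16971 listings of the authors' table and among the 12889 genes kept at a summed normalized count of at least 10 over the libraries. The mice were Prom1CreERT2-nLacZ/+;Rosa26Lsl-GFP/+ on a C57BL/6 background, 6 weeks old, and every animal, the sham controls included, had tamoxifen 7 days before surgery. In these mice Cre is driven from the *Prom1* locus, so that GFP marks cells that expressed *Prom1* when tamoxifen was given, together with their descendants. The 3 groups were sham at day 0, BDL at day 3 and BDL at day 14. The table holds 1 mean per group over 3, 3 and 4 libraries, while the labels list 3, 3 and 6.

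Most of the iron a mammal uses each day is recycled. Macrophages, in the liver the Kupffer cells, engulf aged red cells, break the heme of hemoglobin down through heme oxygenase and biliverdin reductase, and release the iron through ferroportin, the product of *Slc40a1*. Iron that is not released is held in ferritin, a shell built of the chains that *Fth1* and *Ftl1* encode. Hepcidin, the peptide hormone encoded by *Hamp* and made chiefly by hepatocytes, binds ferroportin and sends it for degradation.

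Several of these mRNAs carry an iron-responsive element, a hairpin with a conserved loop that iron regulatory proteins bind when iron is scarce. In a 5′ UTR the bound protein blocks translation, and in the 3′ UTR of *Tfrc* it protects the mRNA from decay. A search of GENCODE M21 transcripts (build GRCm38, the same as mm10) found such hairpins in 4 of the 10 genes. The 27-base sites are printed because they are what storage, export and uptake share in sequence, with the 6-base loop in capitals and the stem on both sides of it.
*Fth1*, 5′ UTR, chr19:9982733-9982759, plus strand: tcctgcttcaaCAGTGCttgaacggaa
*Ftl1*, 5′ UTR, chr7:45459780-45459806, minus strand: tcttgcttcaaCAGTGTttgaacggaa
*Slc40a1*, 5′ UTR, chr1:45925466-45925492, minus strand: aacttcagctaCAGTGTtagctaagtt
*Tfrc*, 3′ UTR, chr16:32631220-32631246, plus strand: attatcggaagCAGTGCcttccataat
*Tfrc*, 3′ UTR, chr16:32631599-32631625, plus strand: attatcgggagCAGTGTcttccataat
*Tfrc*, 3′ UTR, chr16:32631664-32631690, plus strand: tatatcggagaCAGTGAtctccatatg
*Tfrc*, 3′ UTR, chr16:32631711-32631737, plus strand: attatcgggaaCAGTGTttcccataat
The search asked for a C, 5 stem bases, a loop of CAGTG followed by A, C or T, and 5 bases that pair with the stem, G-U pairs allowed. Such a hairpin was found in the 5′ UTR of 23 of 21877 protein-coding genes (0.105%) and in the 3′ UTR of 100 (0.457%). A match is a description of the letters and no measure of binding. RNA-seq counts mRNA, so any change in translation through these hairpins was not measured here. The binding motif of the oxidant-response factors, TGACNNNGC on either strand, was found in none of the 11 RefSeq promoter windows (250 bases before to 50 after a start, GRCm38) of 7 of the genes, against 12.4% of 32851 windows. *Slc40a1*, *Slc48a1* and *Trf* had no window to search. So few windows cannot set these genes apart from that share, and sites farther from a start were not searched.

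The values are group means of upper-quartile normalized counts, deposited to 3 significant digits. The table also gives, for each gene, the geometric mean and the highest count over the 10 libraries, from which the range open to any single library and a pooled spread within groups were computed. The spread was put through limma's empirical Bayes test with Benjamini-Hochberg adjustment over the 12889 genes, and below a gene rose or fell where the adjusted p was 0.05 or less and the fold above 1.5. SE is the standard error of a log2 ratio in this fit. Read depth per library is unknown, and counting errors are therefore not given. By sex, the sham group held 1 male and 2 females, the BDL day 3 group had 2 males and 1 female, and the BDL day 14 group had 3 males and 1 female. Without values per library, the mix of sexes and the groups cannot be told apart. The labels do not name the animal of each library.

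The sorted cells carried strong macrophage signal beside weaker biliary signal. The labels call them Prom1+ progenitor cells and their progeny, yet *Prom1* itself averaged 6.66 normalized counts in the sham group, 0.956 at BDL day 3 and 1.76 by BDL day 14. *Krt19*, a cholangiocyte keratin, averaged 21.5, 12.7 and 14.3, while *Csf1r*, the macrophage growth factor receptor, averaged 1360, 2140 and 1230. Other cholangiocyte markers did not follow *Prom1*, with *Krt8* at 57.2, 60.1 and 60.9 and *Spp1* at 459, 175 and 792. The 12 cholangiocyte markers summed to 639, 310 and 943 normalized counts, and the 8 general macrophage markers to 10165, 19539 and 19342. *Spp1* made up most of the first sum in every group, and *Lyz2* (2280, 4560 and 11200) most of the second at BDL day 14. By median log2 ratio to day 0, the cholangiocyte markers kept were at -1.38 at BDL day 3 and -0.67 at BDL day 14. The macrophage markers were at 0.95 and 0.31. The 6 Kupffer cell markers summed to 9814, 21889 and 1341 normalized counts, the 12 hepatocyte markers to 3688, 1093 and 482, and the 7 red cell genes to 73652, 7639 and 4419. The cells are therefore called GFP(+) cells here, and the levels of marker lists are given beside the genes they moved with.

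The genes for storing iron were by far the most abundant of the set. Per kilobase of exon, *Ftl1* stood at 5022, 11194 and 6746 normalized counts in the 3 groups and *Fth1* at 660, 1606 and 1274. *Trf* followed at 242, 340 and 283, *Slc40a1* stood at 79.0, 167 and 51.0, and *Tfrc* was the lowest at 3.67, 1.33 and 0.794. The exon length was joined over all annotated transcripts of a gene, and the order below ferritin depends on it. By group mean, *Slc40a1* was above *Trf* at BDL day 3 (1500 against 1130), and *Hamp*, not *Tfrc*, was the lowest in every group. Of the summed signal, the 10 genes made up 1.22% in the sham group, 2.90% at BDL day 3 and 2.11% by BDL day 14. At BDL day 3 *Ftl1* was the 4th most abundant gene of the table by group mean, from 21st at day 0, and it was 6th at BDL day 14.

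**Figure D1:**
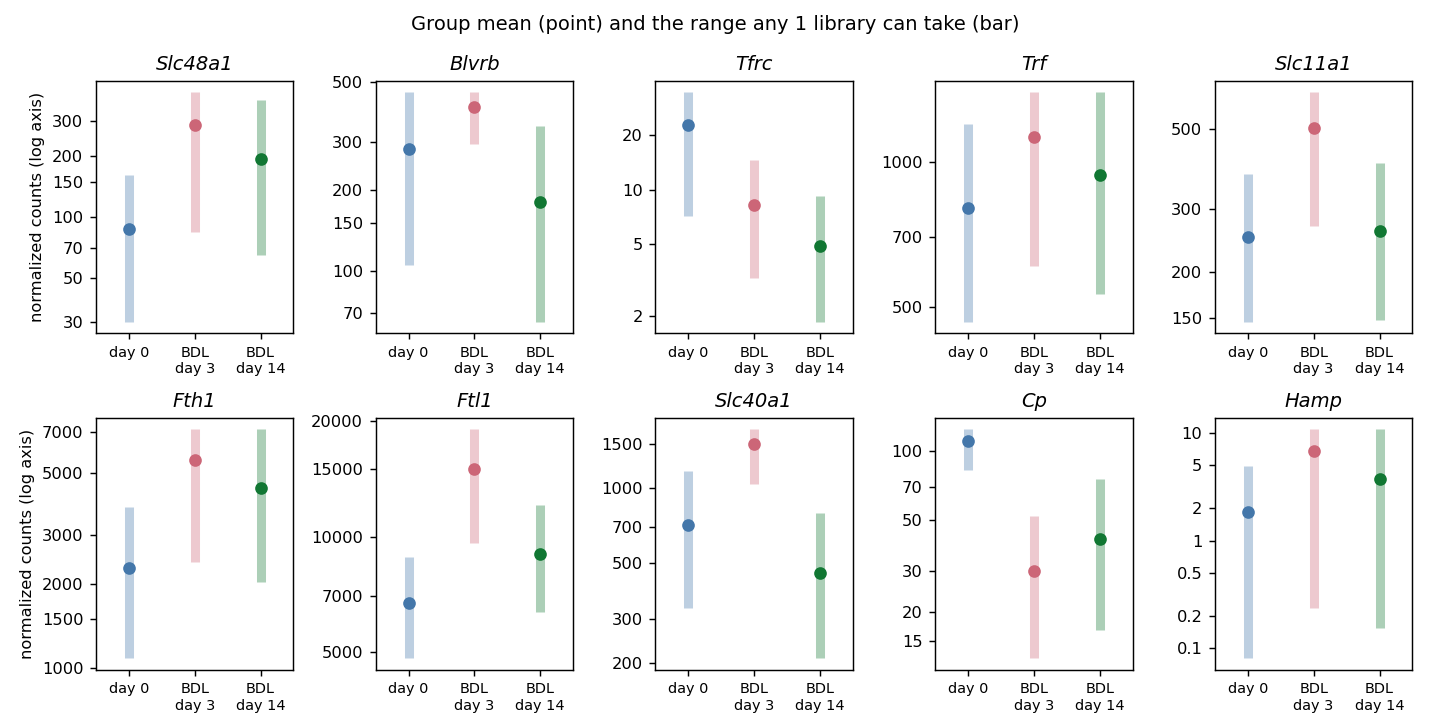
Normalized counts (log axes, 1 panel a gene) at day 0, BDL day 3 and BDL day 14. Points are the authors' group means and bars the range that any 1 library of the group can take given the group means, the geometric mean and the highest library; the bars of *Ftl1* at day 0 and BDL day 3, of *Slc40a1* at BDL day 3 and day 14, and of *Cp* at day 0 and each later time do not meet.

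The heme transporter gene *Slc48a1* was called higher than day 0 at both times after BDL. *Slc48a1* (chr15:97778520-97792693, plus strand) encodes HRG1, which carries heme out of the phagolysosome. Its mean was 87.2 normalized counts in the sham group, 287 at BDL day 3 and 194 by BDL day 14. Any single library lay between 30.3 and 161 at day 0, between 84.0 and 416 at BDL day 3, and between 65.1 and 383 at BDL day 14, so the groups can overlap. *Slc48a1* rose 3.29-fold at BDL day 3 (log2 ratio 1.72, SE 0.37, limma adjusted p = 0.00323) and stayed 2.22-fold above day 0 at BDL day 14 (log2 1.15, SE 0.35, limma adjusted p = 0.0244). Both calls were lost when limma was run without a trend of the spread with the level (adjusted p = 0.0796 and 0.148) and with the gene's own spread (0.126 and 0.186). Its highest library, at 415, belonged to BDL day 3, and without it the group mean was 223 and the log2 ratio to day 0 was 1.35. From BDL day 3 to day 14 the log2 ratio was -0.56, with a 95% interval from -1.28 to 0.15. In bulk libraries like these, fewer cells of a type and less RNA per cell cannot be told apart.

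*Blvrb* (chr7:27447978-27466145, plus strand) encodes biliverdin reductase B, which reduces biliverdins and flavins. Its means were 282, 405 and 180 normalized counts. Libraries could lie between 105 and 459 in the sham group, between 297 and 459 at BDL day 3 and between 64.9 and 346 by BDL day 14, so that all groups can overlap. *Blvrb* fell 2.25-fold from BDL day 3 to day 14 (log2 ratio -1.17, SE 0.33, limma adjusted p = 0.0229), a call that was lost without a trend (adjusted p = 0.153) and with its own spread (0.20). Against day 0 the log2 ratios were 0.52 at BDL day 3 (limma adjusted p = 0.411) and -0.65 at BDL day 14 (limma adjusted p = 0.208), neither past the test.

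The iron uptake genes differed widely in abundance. *Tfrc* (chr16:32608920-32632795, plus strand) encodes transferrin receptor 1, through which cells take in iron-loaded transferrin. It averaged 22.7 normalized counts in the sham group, 8.22 at BDL day 3 and 4.91 by BDL day 14. The possible libraries ran from 7.19 to 34.4, from 3.24 to 14.6 and from 1.87 to 9.19, each range overlapping the next. *Tfrc* fell 4.62-fold from day 0 to BDL day 14 (log2 ratio -2.21, SE 0.49, limma adjusted p = 0.00240), and this was the call among the 10 genes that also passed with the gene's own spread alone (adjusted p = 0.0349 with 7 residual degrees of freedom). By BDL day 3 the log2 ratio of *Tfrc* was -1.47 (SE 0.52, limma adjusted p = 0.0777). One day 0 library, at 34.3, made up 50.4% of its group, and without it the log2 ratios to day 0 were -1.04 and -1.78.

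Red cell genes moved in the same direction as *Tfrc*, and developing red cells are rich in transferrin receptor. Of the 7 red cell genes in the table, 5 fell by the test at BDL day 3 and 6 by BDL day 14, with *Hbb-bs*, a beta-globin, at 29700, 2760 and 1680 normalized counts. None of the 7 was at the floor of the table at day 0 or BDL day 3. Red cells had been lysed before the sort. The part of these cells in the *Tfrc* values was not tested.

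*Trf* (chr9:103204001-103230445, minus strand) encodes transferrin, the iron carrier of plasma. Its means were 804, 1130 and 939 normalized counts, the narrowest spread of group means in the set, and its log2 ratios to day 0 were 0.49 (95% interval -0.25 to 1.23) and 0.22 (-0.47 to 0.92). Transferrin is mainly a hepatocyte product. In the hepatocyte list 9 of 12 markers fell at BDL day 3 and 11 of 12 at BDL day 14, with *Alb*, albumin, at 2440, 642 and 271 normalized counts. None of the 12 was at the floor in any group.

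*Slc11a1* (chr1:74375195-74386063, plus strand) encodes NRAMP1, which moves iron and manganese out of the phagosome of macrophages. C57BL/6 mice are known to carry a loss-of-function missense allele of this gene, and the counts do not tell alleles apart. Its mean was 251 normalized counts in the sham group, 502 at BDL day 3 and 260 by BDL day 14. Libraries lay between 146 and 374, between 268 and 630, and between 148 and 401, so that a BDL day 3 library could still fall within either neighbour. *Slc11a1* rose 2.00-fold at BDL day 3 (log2 ratio 1.00, SE 0.32, limma adjusted p = 0.0461) and fell 1.93-fold from BDL day 3 to day 14 (log2 -0.95, SE 0.30, limma adjusted p = 0.0440). At BDL day 14 its level was within 1.04-fold of day 0 (95% interval of the log2 ratio -0.56 to 0.66). Both calls were close to the threshold and were lost without a trend (adjusted p = 0.142 and 0.150) and with its own spread (0.122 and 0.135). The highest library, at 629, was of BDL day 3, and without it that group averaged 438.5 and the log2 ratio to day 0 was 0.80.

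Ferritin mRNA was higher on average at both times after BDL, and neither chain was called by limma. *Fth1* (chr19:9980598-9985099, plus strand), the heavy chain that oxidizes iron for storage, averaged 2290, 5570 and 4420 normalized counts. Libraries could run from 1085 to 3774 in the sham group, from 2407 to 7185 at BDL day 3 and from 2032 to 7185 by BDL day 14. Against the sham mean, *Fth1* had a log2 ratio of 1.28 (SE 0.51, 2.43-fold, limma adjusted p = 0.116) at BDL day 3 and of 0.95 (SE 0.47, limma adjusted p = 0.198) by BDL day 14.

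*Ftl1* (chr7:45457944-45459885, minus strand), the light chain that helps the iron core to form, averaged 6730 normalized counts in the sham group, 15000 at BDL day 3 and 9040 by BDL day 14. Day 0 libraries lay between 4828 and 8840 and BDL day 3 libraries between 9616 and 19050, so every BDL day 3 library was above every day 0 library. BDL day 14 libraries, between 6378 and 12117, could overlap both. The ratio of BDL day 3 to day 0 was 2.23-fold (log2 1.16), with limma adjusted p = 0.291 where its spread was drawn toward that of other abundant genes (SE 0.64) and adjusted p = 0.0521 with its own spread (SE 0.21). In both estimates the adjusted p stayed above 0.05. Its own standard deviation within groups was 0.26 on the log2 scale, the smallest of the 10 genes.

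*Fth1* and *Ftl1* together made up 0.978% of the summed signal in the sham group, 2.44% at BDL day 3 and 1.83% by BDL day 14. By group mean the light chain exceeded the heavy chain 2.94-fold, 2.69-fold and 2.05-fold in the 3 groups. Per kilobase of exon the ratios were 7.61, 6.97 and 5.29. These depend on exon lengths joined over all annotated transcripts, 3469 bases for *Fth1* and 1340 for *Ftl1*, which need not be the lengths of the mRNAs present. Both chains have processed copies in the genome, and reads could be split between a gene and its copies. *Ftl1-ps1* on chromosome 13 was listed at 170, 430 and 277 normalized counts, or 2.53%, 2.87% and 3.06% of *Ftl1*. This copy rose 2.53-fold at BDL day 3 (log2 ratio 1.34, SE 0.32, limma adjusted p = 0.00836). Its reads cannot be told apart here from reads of *Ftl1*.

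The iron exporter fell from BDL day 3 to day 14. *Slc40a1* (chr1:45908068-45926524, minus strand) averaged 711 normalized counts in the sham group, 1500 at BDL day 3 and 459 by BDL day 14. Libraries lay between 332 and 1177 at day 0, between 1035 and 1725 at BDL day 3, and between 208 and 796 at BDL day 14. Every BDL day 14 library was thus below every BDL day 3 library. *Slc40a1* fell 3.27-fold from BDL day 3 to day 14 (log2 ratio -1.71, SE 0.34, limma adjusted p = 0.00117). Set against the sham mean, its log2 ratio of 1.08 at BDL day 3 (SE 0.36, limma adjusted p = 0.0603) and that of -0.63 at BDL day 14 (SE 0.34, limma adjusted p = 0.239) did not pass. Scaling the groups to the same summed signal brought the BDL day 3 ratio past the test (log2 1.21, adjusted p = 0.0324).

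Kupffer cell markers followed the same order of groups as *Slc40a1*. Of the 6, 2 rose at BDL day 3, *Marco* (694, 3920 and 183 normalized counts) and *Cd5l* (2620, 7440 and 691), and all 6 fell from BDL day 3 to day 14, with *Clec4f*, the Kupffer cell lectin, at 4610, 6890 and 185. None of the 6 was at the floor in any group. The 6 markers of recruited monocytes and macrophages summed to 211, 206 and 2001, and 5 of them rose from BDL day 3 to day 14, among them *Ccr2* at 15.3, 12.2 and 161. Of the 8 general macrophage markers none fell by the test in that interval, though 7 had a lower mean at BDL day 14, 4 of them past 1.5-fold, and the median log2 ratio of the list was -0.58. *C1qa*, a complement chain, was at 2440, 4530 and 1900 normalized counts. Every BDL day 14 library of *C1qa* was below every BDL day 3 library, as for *Slc40a1*, though limma did not call it (adjusted p = 0.0555). *Lyz2*, lysozyme, was at 2280, 4560 and 11200. The part of Kupffer cell numbers in the values of *Slc40a1*, *Slc11a1* and *Blvrb* was not tested.

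*Cp* was called lower than day 0 at both times after BDL. *Cp* (chr3:19957054-20009146, plus strand) encodes ceruloplasmin, the copper oxidase that converts exported iron into the form transferrin binds. Its mean was 111 normalized counts in the sham group, 30.1 at BDL day 3 and 41.4 by BDL day 14. Day 0 libraries lay between 82.5 and 124.5, above any BDL day 3 library (12.6 to 52.2) and any BDL day 14 library (16.8 to 75.6). *Cp* fell 3.69-fold at BDL day 3 (log2 ratio -1.88, SE 0.35, limma adjusted p = 8.78e-04) and was 2.68-fold below day 0 at BDL day 14 (log2 -1.42, SE 0.33, limma adjusted p = 0.00346). Between the later times its log2 ratio was 0.46 (95% interval -0.22 to 1.13). Ceruloplasmin is made mainly by hepatocytes, whose list fell as given above, and mesenchymal markers moved with it as well. The 8 mesenchymal genes summed to 1030, 20.9 and 93.9 normalized counts, and 6 of them fell at BDL day 3. *Lrat*, a stellate cell enzyme, was at the floor by BDL day 14 (0.173). The part of these cells in the *Cp* values was not tested.

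*Hamp* (chr7:30942368-30944033, minus strand) was near the low end of the table, with means of 1.86, 6.87 and 3.73 normalized counts. A library could lie between 0.081 and 4.89 at day 0 and between 0.237 and 10.9 at BDL day 3. Between day 0 and BDL day 3 its means differed by a log2 ratio of 1.89 with an SE of 0.86 (limma adjusted p = 0.180), and no difference was detectable at this level. The paralog *Hamp2* was listed at 2.29, 0.947 and 0.449, and reads of these near-identical genes may be shared.

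**Figure D2:**
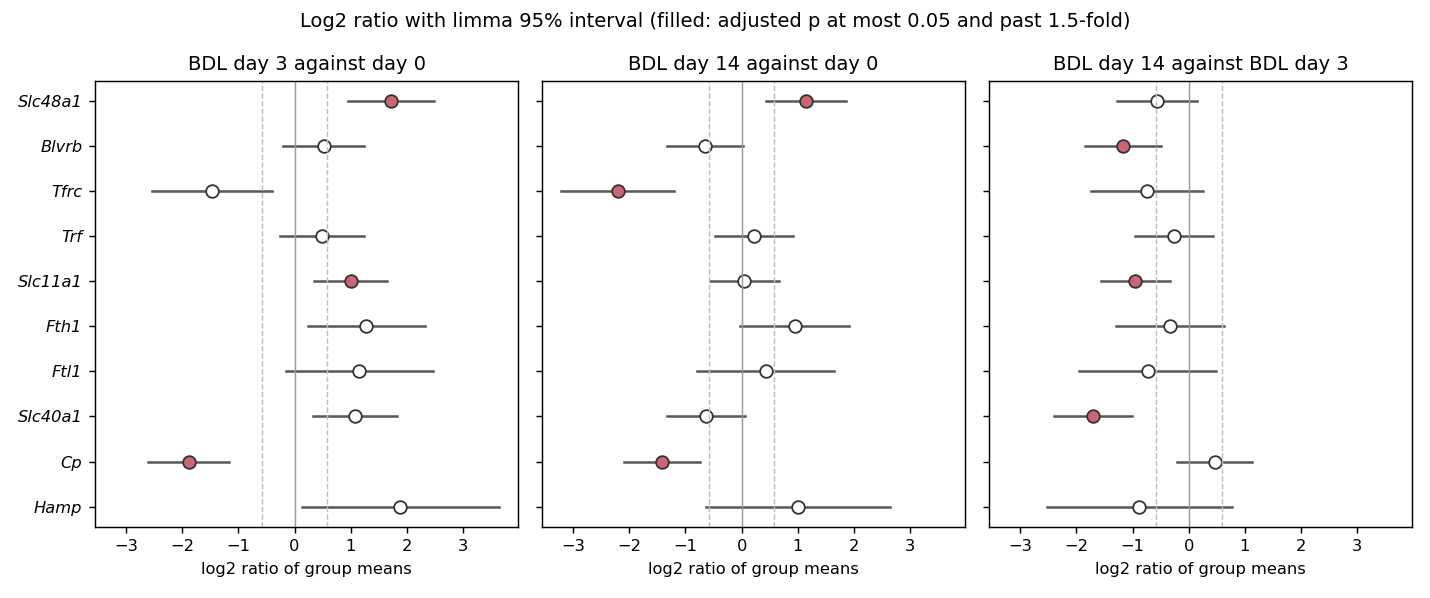
Log2 ratio of group means (x axis) of the 10 genes (y axis) in the 3 comparisons. Points are ratios, lines limma 95% intervals, dashed lines a fold of 1.5 and filled points the calls: *Slc48a1*, *Slc11a1* and *Cp* at BDL day 3, *Slc48a1*, *Tfrc* and *Cp* at BDL day 14, and *Blvrb*, *Slc11a1* and *Slc40a1* between the later times.

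Counted over the set, BDL day 3 against day 0 put the mean of 6 of 10 genes more than 1.5-fold higher, against 19.2% of the 12889 genes, and 2 lower, against 29.2%. By limma *Slc11a1* and *Slc48a1* rose (background 3.03%) and *Cp* fell (6.30%). Libraries could not overlap upward for *Ftl1* (2.02% of all genes) and downward for *Cp* (3.09%). The median log2 ratio of the 10 genes was 1.04, against -0.02 over all genes.

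At BDL day 14 against day 0, 3 of 10 means were more than 1.5-fold higher (21.2% of all genes) and 4 were lower (28.8%). By limma *Slc48a1* rose (5.48%) and *Cp* and *Tfrc* fell (8.85%). No gene of the set was separated upward (1.58%), and *Cp* was separated downward (3.46%). The median log2 ratio was 0.14, against -0.04 over all genes. Both comparisons use the same day 0 libraries.

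From BDL day 3 to day 14, none of the 10 means was more than 1.5-fold higher (21.2% of all genes) and 6 were lower (19.7%). By limma no gene of the set rose (4.63%), and *Blvrb*, *Slc11a1* and *Slc40a1* fell (4.01%). No gene was separated upward (0.822%) and *Slc40a1* was separated downward (1.83%). The median log2 ratio was -0.74, against -0.00 over all genes. Each called share rests on few genes, and the genes were chosen with earlier results known. Of the calls in the 3 comparisons, those of *Cp*, *Tfrc* and *Slc40a1* remained when limma was run without a trend of the spread with the level, while those of *Slc48a1*, *Slc11a1* and *Blvrb* did not (adjusted p from 0.0796 to 0.153). With each gene's own spread alone the call of *Tfrc* at BDL day 14 remained, and the adjusted p of the others lay between 0.0575 and 0.20.

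The balance of higher and lower calls over all genes depended on the scaling. As deposited, limma called 390 genes higher and 812 lower for the early time, 706 and 1141 for the late one, and 597 and 517 between the 2. With groups scaled to the same summed signal, which moved the median log2 ratio by 0.13, 0.33 and 0.20, these became 589 and 734, 1627 and 871, and 801 and 358. By fold alone the counts went from 2474 higher and 3760 lower to 3217 and 3359 for the early time, from 2729 and 3707 to 4579 and 2712 for the late one, and from 2733 and 2538 to 3640 and 1809 between the 2. No log2 ratio of the 10 genes changed sign under any scaling tried.

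The group mean was highest at BDL day 3 in 8 of the 10 genes, against 29.8% of all genes kept. *Cp* was lowest there, as were 30.7% of all genes, and *Tfrc* lay between its other groups, as did 39.5%. A higher mean at BDL day 3 was not particular to these genes. Past 1.5-fold above day 0 were 7 of the 8 general macrophage markers and 5 of the 6 Kupffer cell markers, against 19.2% of all genes. Their median log2 ratios were 0.95 and 1.06, and 1 and 2 of them rose by limma. The part of macrophage numbers in the peak of the 8 genes was not tested.

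**Figure D3:**
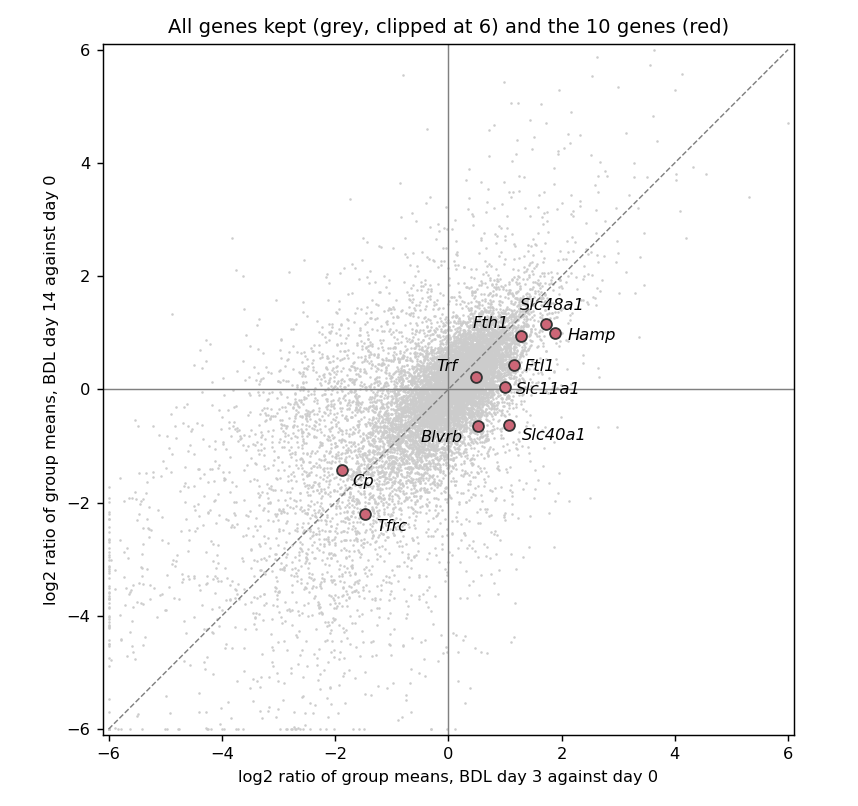
Log2 ratio of group means at BDL day 3 (x axis) and BDL day 14 (y axis), both against day 0, for the 12889 genes kept (grey, clipped at 6) and the 10 genes (red); the dashed line marks equal ratios. All of the 10 except *Cp* lie below the line, where the BDL day 14 ratio is the lower one.

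In the plane of these log2 ratios, the genes nearest to *Slc40a1* among 7291 with a mean of at least 10 were *Cadm1* (distance 0.0232), *Snn* (0.0780) and *Gpx1* (0.0877). The means of *Gpx1*, which encodes a glutathione peroxidase, were 1140, 2340 and 777 normalized counts, those of *Cadm1* 68.6, 145 and 45.0, and those of *Snn* 9.44, 19.7 and 5.78. In all, 81 genes lay within 0.5 of *Slc40a1*. The likeness is over 3 group means and 2 ratios that share day 0.

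The wider pathway was read from 8 lists of 66 further iron and heme genes, of which 63 had a listing and 59 were kept. At BDL day 3, 4 of the 59 rose and 6 fell by limma, against 3.03% and 6.30% of all genes. By BDL day 14, 1 rose and 10 fell (background 5.48% and 8.85%), and between the later times 1 rose and 6 fell (4.63% and 4.01%). By fold alone 20.3% of the 59 were higher and 28.8% lower at BDL day 3, against 19.2% and 29.2% of all genes. For BDL day 14 against day 0 these shares were 13.6% and 32.2%, against 21.2% and 28.8%, and between the later times 16.9% and 27.1%, against 21.2% and 19.7%.

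Heme uptake and breakdown held the largest rise of the 59 called at BDL day 3. *Hmox1*, the inducible heme oxygenase, averaged 606, 3140 and 840 normalized counts, rose 5.18-fold at BDL day 3 (limma adjusted p = 3.03e-04) and fell 3.74-fold by BDL day 14. *Lrp1*, the receptor that takes up heme bound to hemopexin, rose 2.25-fold at BDL day 3 (396 to 892 normalized counts, limma adjusted p = 0.0410). *Cd163*, the receptor for haptoglobin-bound hemoglobin, averaged 413, 624 and 206 and fell 3.03-fold between the later times (limma adjusted p = 0.00562). The plasma scavengers, which hepatocytes secrete, went the other way. *Hp*, haptoglobin, fell at BDL day 3 and was at 540, 157 and 113 normalized counts, and *Hpx*, hemopexin, was at 447, 202 and 75.9 and fell by BDL day 14. In the hepatocyte list 9 of 12 markers fell at BDL day 3 and 11 at BDL day 14. The part of hepatocytes in the *Hp* and *Hpx* values was not tested. Nor was that of macrophages, whose markers were also higher on average at BDL day 3, in those of *Hmox1* and *Lrp1*.

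Ferritin turnover and hepcidin control each held a gene with the BDL day 3 peak. *Ncoa4*, the receptor that carries ferritin to the lysosome, averaged 196, 434 and 180 normalized counts and rose 2.21-fold at BDL day 3 (limma adjusted p = 0.0242) before it fell 2.41-fold. *Hfe*, the hemochromatosis protein that binds transferrin receptor 1, averaged 140, 346 and 131, rose 2.47-fold (limma adjusted p = 0.00761) and fell 2.64-fold. The part of macrophage and Kupffer cell numbers in the values of *Ncoa4* and *Hfe* was not tested. Of the 16 hepcidin control genes kept, *Hfe* alone was called at BDL day 3. By fold 2 were higher and 5 lower there (19.2% and 29.2% of all genes), with a median log2 ratio of -0.39. At BDL day 14 none rose and 2 fell by limma (5.48% and 8.85%). They were *Id1* (103, 77.4 and 37.0 normalized counts) and *Il6* (3.81, 2.96 and 0.266). The iron chaperones *Pcbp1* and *Pcbp2* were at 97.1, 111 and 92.8 and at 186, 225 and 222, without a call. *Bmp2*, an endothelial inducer of hepcidin, was at 28.1, 9.49 and 54.9 normalized counts and rose between the later times. Sinusoidal endothelial markers summed to 915, 292 and 933, with 4 of 7 rising in that interval and none at the floor, and the part of these cells in the *Bmp2* values was not tested.

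None of the iron sensors was called. *Aco1* and *Ireb2*, which encode the iron regulatory proteins, averaged 39.9, 73.1 and 49.7 and 19.8, 22.9 and 20.2 normalized counts, and *Fbxl5*, whose product marks the second of them for degradation, 32.5, 28.1 and 28.2. The largest of their log2 ratios was that of *Aco1* at BDL day 3 (0.87, limma adjusted p = 0.0784).

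Mitochondrial iron import and heme synthesis had 3 of 12 genes lower at BDL day 3 by limma (6.30% of all genes) and none higher (3.03%). They were *Alas2*, the red cell form of the first enzyme of heme synthesis (920, 98.9 and 67.6 normalized counts), *Slc25a37*, mitoferrin 1 (35.7, 8.15 and 10.8), and *Fech*, ferrochelatase (90.8, 34.9 and 50.4). *Alas1*, the form used in other cells, averaged 22.1, 26 and 27.2 and was not called. A 5′ UTR hairpin of the kind shown above was also found in *Alas2*, at chrX:150547459-150547485. These 3 genes moved with the red cell list, whose part was not tested.

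Iron uptake and reduction had 2 of 9 genes called lower at the early time (6.30% of all genes), 3 at the late one (8.85%), and none higher at either (3.03% and 5.48%). They were *Lcn2*, lipocalin 2, which binds iron carriers of bacteria (82.1, 24.0 and 39.2 normalized counts), and *Steap4*, a metalloreductase (14.0, 1.39 and 2.05), at BDL day 3. At BDL day 14 they were *Steap4*, *Ltf*, the lactoferrin of neutrophil granules (20.9, 7.28 and 1.09), and *Slc22a17*, a lipocalin 2 receptor (8.77, 14.0 and 1.28). The 7 neutrophil genes summed to 549, 274 and 168, with 5 falling at BDL day 14 and *Camp*, a granule peptide, at the floor there, and their part in the *Ltf* values was not tested. Among the transcription factors, *Spic*, which drives the program of iron-recycling macrophages, averaged 109, 96.7 and 35.8 and fell both against day 0 and between the later times. All 6 Kupffer cell markers fell in both of these comparisons, and the part of Kupffer cell numbers in the values of *Spic* and *Cd163* was not tested. *Bach1*, a heme-sensing repressor of *Hmox1*, averaged 17.2, 20.6 and 35.4 normalized counts and rose by BDL day 14 (limma adjusted p = 0.0413).

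**Figure D4:**
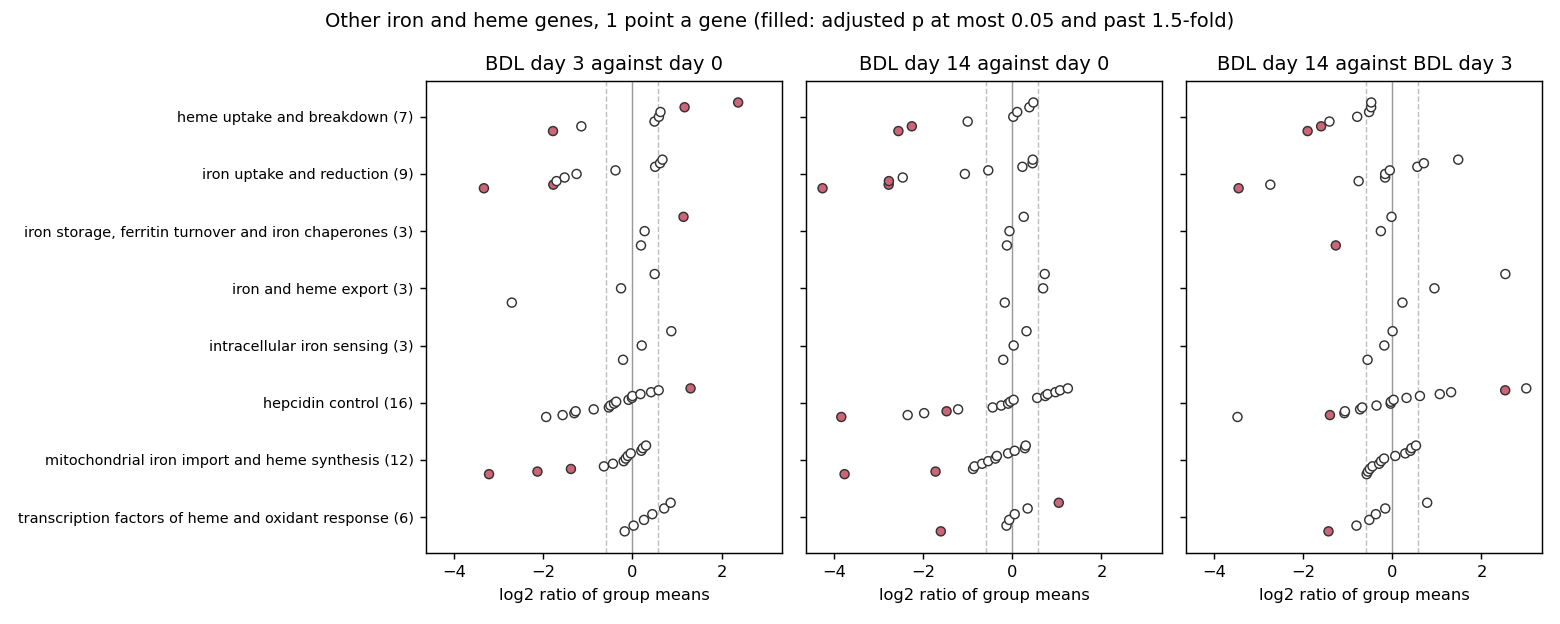
Log2 ratio of group means (x axis) of the 59 further iron and heme genes kept, 1 point a gene, by list (y axis, genes kept in brackets) in the 3 comparisons; the vertical offset within a list orders the genes. Filled points are limma calls, of which 4 rose and 6 fell at BDL day 3.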

How the data were processed

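GFP(+) cells were sorted from liver and their poly(A) RNA was sequenced. According to their methods, the authors trimmed reads to a quality of 20 and a length of 25 bp, aligned them to mm10 with STAR (2.6.1d in the submitters' processing notes), counted GENCODE M18 genes and normalized by the upper quartile in Partek Flow. The deposited signal is the authors' least squares mean of normalized counts per group. The other deposited columns give summed, highest, geometric mean and arithmetic mean counts over 10 libraries, and the authors' p-values, FDR, ratios, fold changes and limits, which were not used. The table has 0 columns of single libraries. Group sizes of 3, 3 and 4 returned the arithmetic mean within 0.469% (99th percentile), against 2.70% for the next sizes. The authors left 2 BDL day 14 libraries out for low reads without naming them.

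Of repeated symbols the first listing was kept (2 left out), and genes with a summed count of at least 10 were tested. The floor of a group was set at 4 times its lowest mean. Group ratios past 1.5-fold were the planned comparison. After the table was seen, a test was added. The gap between the weighted log group means and the log geometric mean gives each gene's variance within groups (7 residual degrees of freedom), passed to limma 3.58.1 (R 4.3.3, eBayes with a trend, 27.5 degrees of freedom). It takes the spread as equal across groups and near log-normal. The ranges of single libraries, also added, follow from the same columns and allow for rounding to 3 digits. On simulated data, 94.6% of 12889 intervals (BDL day 14 against day 0) held the true ratio. The simulated libraries were drawn as log-normal with 1 spread per gene in all groups. That share therefore checks the computation and cannot test the assumptions of equal spread and shape. The paper reports that replicates varied more at BDL day 14 than at day 0. Alternatives were other scalings, filters, a pseudocount of 1, a fold of 2, each gene's highest library left out where it could be placed (4974 genes), limma without a trend and each gene's own spread.

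Members and lists were chosen with earlier results of these data known. Named genes are all members, their near-identical copies, pathway genes past 1.5-fold, markers beside a member, and the 3 genes nearest to *Slc40a1*. *Pcbp1*, *Pcbp2*, *Alas1* and the iron sensors were named for their roles outside this rule. Older symbols were matched through RefSeq.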

Additional observations from a re-analysis of the deposited data

Results flagged for a closer look

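The change from day 0 differed between BDL day 3 and BDL day 14 by limma's test of that difference for 3 of the 10 genes. The difference was -1.71 on the log2 scale for *Slc40a1* (adjusted p = 0.00117), -1.17 for *Blvrb* (adjusted p = 0.0229) and -0.95 for *Slc11a1* (adjusted p = 0.0440). All are lower at BDL day 14. Day 0 cancels out of this difference, so these are the tests of BDL day 14 against BDL day 3 given above. Groups of 3 and 4 libraries without single values could not be searched for outlying samples.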

How the results depend on the processing

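No log2 ratio or call of the 10 genes changed direction under the alternatives run. Pathway genes were followed by counts, and the shift of 0.33 under the same summed signal at BDL day 14 exceeds the small negative log2 ratios of *Ncoa4* (-0.12), *Hfe* (-0.10) and *Pcbp1* (-0.07). Of the calls of single genes under another limma setting, 131 stayed on their side of the threshold, 15 were lost and 1 was gained. All log2 ratios but 1 moved by less than the spread between libraries; *Ftl1* at BDL day 14 against day 0 went to 0.75 with the same summed signal. Below, the first comparison is that of BDL day 3 and the second that of BDL day 14 with the sham group, and the third sets BDL day 14 against BDL day 3.

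Without a trend, limma called 0 of the 10 genes higher in the first and the second comparison and 1 lower in the third. *Slc48a1* had adjusted p = 0.0796 (log2 1.72) and 0.148 (1.15), *Slc11a1* 0.142 (1.00) and, in the third, 0.150 (-0.95), and *Blvrb* 0.153 (-1.17). Pathway genes called went to 1 higher and 1 lower, 0 and 4, and 0 and 3. Over all genes the calls went from 1202, 1847 and 1114 to 571, 1308 and 559.

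With each gene's own spread (231, 898 and 208 calls over all genes), 0 of the 10 were higher and 0 lower in the first comparison, 0 and 1 in the second, and 0 were lower in the third. *Slc11a1* had adjusted p = 0.122 (log2 1.00) and, in the third, 0.135 (-0.95), *Slc48a1* 0.126 (1.72) and 0.186 (1.15), *Cp* 0.0621 (-1.88) and 0.0622 (-1.42), *Slc40a1* 0.0575 (-1.71) and *Blvrb* 0.20 (-1.17). Pathway genes called were 1 and 0, 0 and 0, and 0 and 0. Fewer degrees of freedom (7 against 27.5) are part of how this setting is built.

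With the same summed signal, *Slc40a1* passed at BDL day 3 (1.21, adjusted p = 0.0324), while in the third comparison *Slc11a1* (-0.75, adjusted p = 0.128) and *Blvrb* (-0.97, adjusted p = 0.0638) did not and 1 of the 10 was called lower. By fold, 2 of the 10 were lower in the second comparison and 1 was higher in the third; 17 pathway genes were higher in the second, and limma called 2 pathway genes higher in the second and 3 in the third.

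At a fold of 2, the pathway genes higher were 4, 3 and 6, and 2 of the 10 were lower in the second and 2 in the third comparison. At a mean of at least 10, 9, 9 and 9 pathway genes were lower by fold and 6 by limma in the second, with fewer genes tested. With no filter, limma called 2 pathway genes higher in the third. Without each gene's highest library, 4 pathway genes were higher in the second. The cause of the other shifts was not tested. No library other than the highest could be left out, since the table holds group means. No paired analysis was possible because the labels carry no replicate numbers and the table no value per library. Unknown depth limits what can be said of *Hamp*.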
